A study of Triticum aestivum with 12 samples.

Results

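The gene models at the short-arm end of wheat chromosome 1B were described in the anther transcriptomes of ‘Mv 17-09’, a heat-sensitive wheat, and ‘Ellvis’, a heat-tolerant one. Members were the gene IDs of the TraesCS1B03G series with a number under 400000, which gave 3999 of the 266760 gene models counted, 1455 of them high-confidence and 2544 low-confidence. The same limit gave 3967 models on 1A and 3939 on 1D, and 8849 models lay on the rest of 1B. ID numbers were taken as the order of the models along the chromosome. In 12 of the 13 listed 1B genes with RefSeq coordinates (assembly IWGSC CS RefSeq v2.1) the start increased with the number, and the members among these 12 lay between positions 12376413 and 157778920. The exception was a MUS81 model paired with the same RefSeq gene as another ID. The position of the centromere is not given in the sources used here, so the arm was defined by the number alone.

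The 4 groups were heat-stressed ‘Mv 17-09’, control ‘Mv 17-09’, heat-stressed ‘Ellvis’ and control ‘Ellvis’, with 3 libraries each. Both are winter wheats. Heat-stressed plants were kept at 35 °C for 24 h from the day before the onset of male meiosis, and control plants of the same developmental stage stayed in the usual growth programme. The study calls the libraries of a group biological replicates, and how plants were divided between them is not given in the sources used here. A count table cannot tell apart a gene that is absent from a genome, one that is not transcribed, and one whose reads differ too much from the reference genome to be counted, and in whole anthers fewer cells of a type and less RNA per cell cannot be told apart.

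Bread wheat is a hexaploid whose A, B and D genomes each carry a copy of most genes, so that the loss of a B copy often leaves an A and a D copy in place. The short arm of 1B is known for a nucleolar organizer, where ribosomal RNA genes are clustered, and for loci of gliadin and glutenin storage proteins. In many cultivars it has been replaced by the short arm of a rye chromosome. The karyotype of ‘Mv 17-09’ and of ‘Ellvis’ is not given in the sources used here, and its part in the results was not tested.

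Library totals were 9336312 to 9670186 counts in heat-stressed ‘Mv 17-09’, 15867579 to 20846135 in control ‘Mv 17-09’ and 13789268 to 17360285 in heat-stressed ‘Ellvis’. Control ‘Ellvis’ replicate 1 stood apart with 1831675 counts, against 14439086 and 17323438 in the other controls. Of the 208 gene IDs in the study's meiosis table as used here, 139, 133, 142 and 147 reached a mean of 1 CPM in heat-stressed ‘Mv 17-09’, control ‘Mv 17-09’, heat-stressed ‘Ellvis’ and control ‘Ellvis’. Of the 201 IDs in its table for the tapetum, the anther layer that feeds pollen, 115, 100, 113 and 111 did. CPM are the counts scaled to a common library size. That size was the sum of counts over the genes with enough counts to be tested, adjusted by the TMM method. In control ‘Ellvis’ replicate 1 this sum was 1690736.

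Counts from the 1B short arm were over 4 times rarer in ‘Mv 17-09’ than in ‘Ellvis’, with or without heat. All members together held 0.210%, 0.220% and 0.222% of the library counts in heat-stressed ‘Mv 17-09’, and 0.223%, 0.219% and 0.220% in control ‘Mv 17-09’. In heat-stressed ‘Ellvis’ they held 0.915%, 0.899% and 0.873%, and in control ‘Ellvis’ 1.18%, 0.909% and 0.904%, where replicate 1 is the highest. No library of one cultivar reached the range of the other. The mean was 0.219% ± 0.0049 in ‘Mv 17-09’ and 0.946% ± 0.114 in ‘Ellvis’ (SD, n = 6 each), a ratio of 0.231, and 0.243 without control ‘Ellvis’ replicate 1. One low-confidence model, TraesCS1B03G0226200LC, held 12.7% of the members' counts in that library and 1.63% to 5.62% in the other 11. Without it, the share in that library was 1.03%.

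The arms of 1A and 1D held slightly more in ‘Mv 17-09’. On 1A the share was 1.19% ± 0.0201 in ‘Mv 17-09’ and 1.09% ± 0.0707 in ‘Ellvis’ (SD, n = 6 each), a ratio of 1.09. The ranges overlapped only through control ‘Ellvis’ replicate 1, and the ratio was 1.12 without it. On 1D it was 1.98% ± 0.0747 in ‘Mv 17-09’ and 1.64% ± 0.0297 in ‘Ellvis’, a ratio of 1.21, with no overlap. These SDs pool heat and control. In ‘Mv 17-09’ the 1D share was 2.05% ± 0.0118 under heat and 1.91% ± 0.0116 in controls (SD, n = 3 each), without overlap. Low-confidence models there held 0.718% under heat and 0.482% in controls, and high-confidence models 1.33% and 1.43%. Together the 1B, 1A and 1D arms held 3.39% in ‘Mv 17-09’ (3.30% to 3.47%) and 3.68% in ‘Ellvis’ (3.53% to 4.04%), without overlap. The 1A and 1D arms hold most of these counts, so a smaller relative gap than for 1B alone follows from the addition. The rest of 1B held 3.85% in ‘Mv 17-09’ and 3.37% in ‘Ellvis’.

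**Figure D1:**
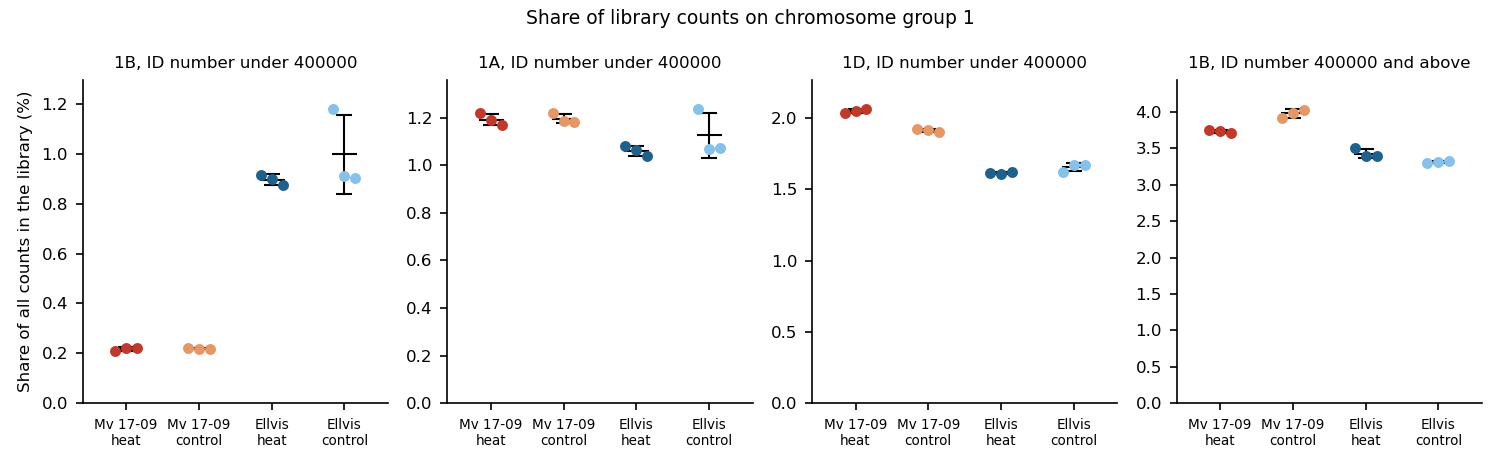
Share of all counts in a library (%, y axis from 0) held by the gene models of 4 regions, by group (x axis). Points are libraries, horizontal bars the mean of 3 libraries and error bars the SD. The 6 ‘Mv 17-09’ libraries sit between 0.210% and 0.223% on the 1B short arm, below all 6 ‘Ellvis’ libraries (0.873% to 1.18%).

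Along the chromosome, the lowering in ‘Mv 17-09’ covered the whole arm and then stopped over a short stretch. For genes averaging 1 CPM or more over the 12 libraries, the log2 ratio of ‘Mv 17-09’ to ‘Ellvis’ (means of 6 libraries, pseudocount 0.1 CPM) was taken in bins of 20000 ID numbers. All 20 bins of the 1B arm had a median below 0, from -3.54 to -1.54. The next bin, from 400000 up to 420000, had a median of -3.06, with 35 of 35 genes over 2-fold lower. In the bin from 420000 up to 440000 the median was -1.63, and 17 of 33 genes were over 2-fold lower. From 440000 up to 460000 it was -0.20, with 2 of 44 such genes. The 43 bins from 440000 onward had medians between -0.30 and 0.27.

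The lowering ran on beyond the limit of 400000. The 10 such genes just inside it had a median log2 ratio of -4.50, and the 10 just outside -3.11, with all 20 over 2-fold lower. From 400000 upward, 50 consecutive genes at that level of expression were over 2-fold lower, the last with the number 429800. That gene had 11.6, 10.6 and 13.5 CPM in heat-stressed ‘Mv 17-09’, 16.1, 15.3 and 15.5 CPM in control ‘Mv 17-09’, 52.0, 51.9 and 51.5 CPM in heat-stressed ‘Ellvis’ and 34.5, 61.2 and 60.4 CPM in control ‘Ellvis’. The next, number 430400, averaged 6.68 CPM in ‘Mv 17-09’ and 6.48 CPM in ‘Ellvis’. Of the 35 such genes from there up to 450000, 3 were over 2-fold lower. This edge was located after the values were seen.

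A listed gene lies on each side of that edge. ABCG12 (TraesCS1B03G0409400, 1B, 219946124 to 219952484), a membrane transporter of the ABCG family, averaged 3.6 CPM in ‘Mv 17-09’ and 12.1 CPM in ‘Ellvis’. Its log2 fold change was -2.11 ± 0.16 in controls (SE, adjusted p = 8.63e-08, edgeR quasi-likelihood test). Cyclin-A1-4 (TraesCS1B03G0430700, 1B, 244690658 to 244694015), a regulator of the cell cycle, averaged 9.37 CPM in ‘Mv 17-09’ and 12.5 CPM in ‘Ellvis’, and in controls its log2 fold change was -0.26 ± 0.17 (adjusted p = 0.333).

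**Figure D2:**
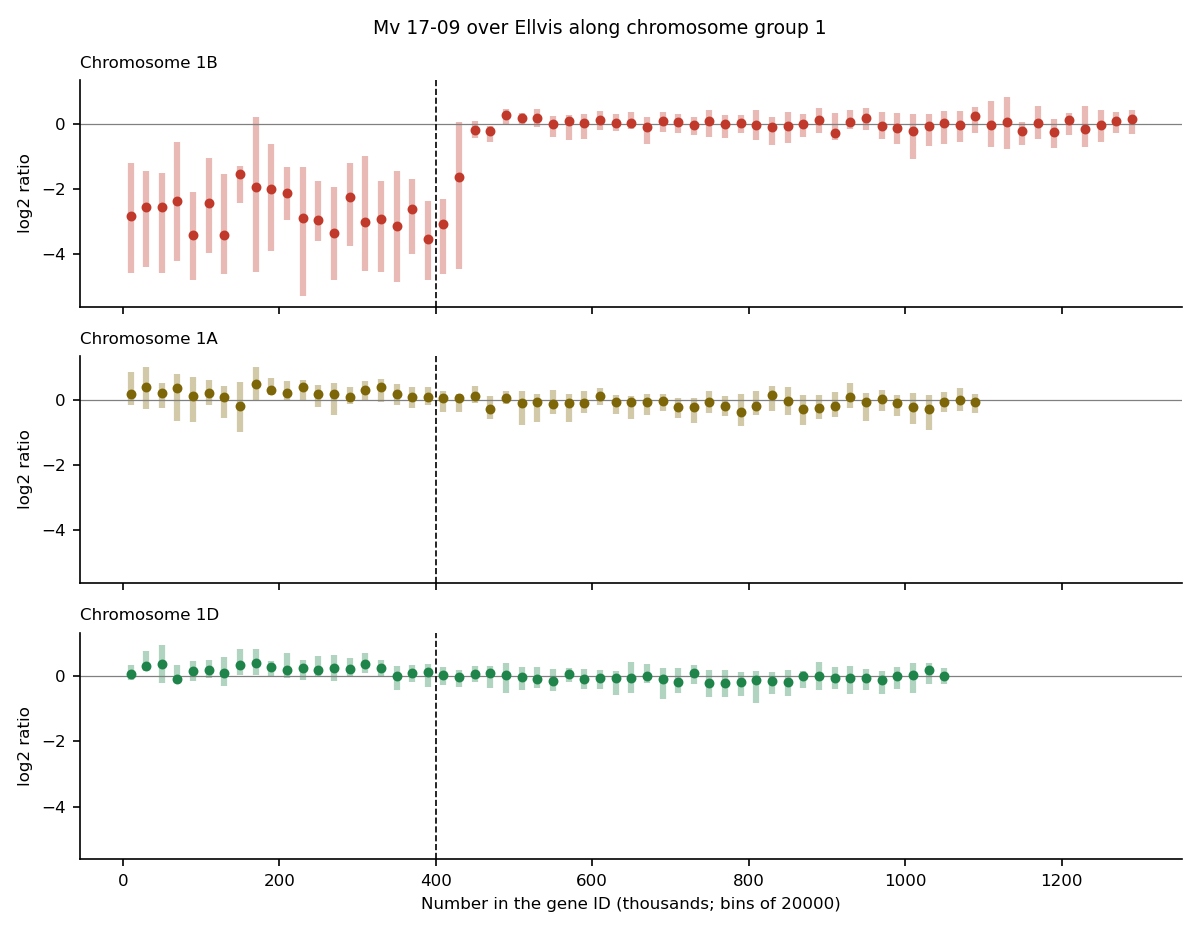
Median log2 ratio of ‘Mv 17-09’ to ‘Ellvis’ (points) and its quartiles (bars) in bins of 20000 ID numbers (x axis, number divided by 1000) on 1B, 1A and 1D, for genes averaging 1 CPM or more. The dashed line marks 400000. On 1B the medians lie between -3.54 and -1.54 left of the line and between -0.30 and 0.27 from 440000 onward, whereas on 1A and 1D 19 of 20 bins left of the line lie above 0.

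Among themselves, the members ranged from no counts to more counts in ‘Mv 17-09’ than in ‘Ellvis’. Of the 587 members averaging 1 CPM or more, 180 were over 16-fold lower in ‘Mv 17-09’, 195 were 4- to 16-fold lower and 99 were 2- to 4-fold lower. Another 93 were within 2-fold and 20 were over 2-fold higher. The median log2 ratio was -2.69, with quartiles of -4.45 and -1.34, against 0.01 over all 57229 genes at that level. Each stretch of 100000 ID numbers held members within 2-fold beside lowered ones. The first had 91 over 2-fold lower and 15 within 2-fold, the next 82 and 28, then 133 and 24, and the last 168 and 26. The members over 2-fold higher numbered 10, 5, 4 and 1 in the same order.

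The lowering was found at every level of expression. Members with 1 to 5 CPM in ‘Ellvis’ had a median log2 ratio of -3.15 (n = 401), those with 5 to 20 CPM -3.33 (n = 212), those with 20 to 100 CPM -2.43 (n = 85) and the 10 members over 100 CPM -3.09. These classes were set by the ‘Ellvis’ level, which also enters the ratio. With classes set by the mean over all 12 libraries, the lowering was smaller at higher levels. The medians were then -2.98 at 1 to 5 CPM (n = 379), -2.55 at 5 to 20 CPM (n = 149) and -2.23 at 20 CPM and over (n = 59). Among members with at least 1 CPM in ‘Ellvis’, high-confidence models had a median of -2.88 (n = 558) and low-confidence models -3.71 (n = 150). Chosen by the mean over all 12 libraries instead, the medians were -2.56 (n = 478) and -3.16 (n = 109). Taken library by library, over the 708 members with a mean of at least 1 CPM in ‘Ellvis’, the median log2 ratio to the mean of the other ‘Ellvis’ libraries lay between -3.37 and -2.97 in the 6 ‘Mv 17-09’ libraries and between -0.15 and -0.02 in the 6 ‘Ellvis’ libraries.

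**Figure D3:**
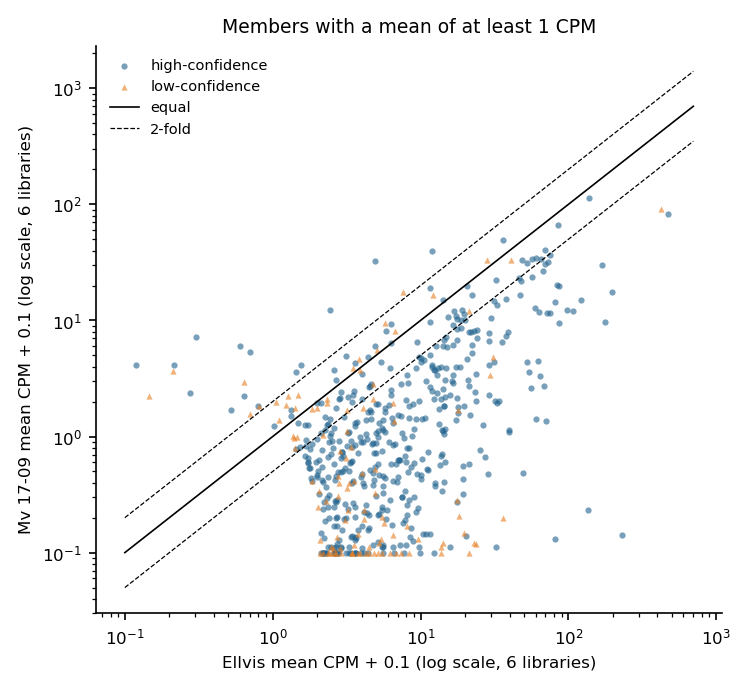
Mean CPM plus 0.1 of the 587 members with a mean of at least 1 CPM, ‘Mv 17-09’ (y axis) against ‘Ellvis’ (x axis), both on log scales, 6 libraries each. Circles are high-confidence and triangles low-confidence models, the solid line marks equal levels and the dashed lines 2-fold. Of these members 474 lie below the lower dashed line and 20 above the upper one.

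Many members had practically no counts in ‘Mv 17-09’. Of the 708 members with a mean of at least 1 CPM in ‘Ellvis’, 184 (26.0%) had 3 or fewer counts over the 6 ‘Mv 17-09’ libraries together. On 1A this was 2.09%, on 1D 1.16%, on the rest of 1B 3.43% (2.09% from 440000 onward) and over all genes 2.1%. The reverse, 3 or fewer counts in ‘Ellvis’ at 1 CPM or more in ‘Mv 17-09’, held for 5 of 273 members (1.83%, against 0.793% of all genes). Without control ‘Ellvis’ replicate 1 the count of members nearly without ‘Mv 17-09’ counts was 162 of 661 (24.5%, against 1.36% of all genes). At 5 CPM or more in ‘Ellvis’ it was 34 of 307 members (11.1%), against 0.633% over all genes. In total 2789 of the 3999 members had no count in any ‘Mv 17-09’ library, and 1520 had none in any ‘Ellvis’ library. These totals are not given here for other regions. Per library, 732 to 845 members had a count in ‘Mv 17-09’ and 1416 to 1755 in ‘Ellvis’. On 1A the numbers were 1406 to 1558 and 1472 to 1810, so some ‘Ellvis’ libraries reached more genes there too. The 6 ‘Mv 17-09’ libraries together held 81847359 counts.

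The members with the most counts held a somewhat larger share of the members' counts in ‘Mv 17-09’. The 10 members with the most counts held 26.3% of the 179441 member counts in ‘Mv 17-09’ and 21% of the 739096 in ‘Ellvis’. The highest in ‘Mv 17-09’, TraesCS1B03G0360700, was among those at like levels. It had 119, 124 and 118 CPM in heat-stressed ‘Mv 17-09’, 104, 108 and 107 CPM in control ‘Mv 17-09’, 151, 153 and 140 CPM in heat-stressed ‘Ellvis’ and 79.1, 147 and 155 CPM in control ‘Ellvis’. Its log2 fold change was -0.28 ± 0.20 in controls (adjusted p = 0.366, edgeR). TraesCS1B03G0086800, the highest in ‘Ellvis’, had 12.2, 68.2 and 102 CPM in heat-stressed ‘Mv 17-09’, 99.3, 100 and 109 CPM in control ‘Mv 17-09’, 303, 296 and 285 CPM in heat-stressed ‘Ellvis’ and 558, 729 and 680 CPM in control ‘Ellvis’. It was lower in ‘Mv 17-09’ controls by a log2 fold change of -2.67 ± 0.46 (adjusted p = 0.000466). TraesCS1B03G0226200LC, second in both cultivars, was at 1551 CPM in control ‘Ellvis’ replicate 1 and at 152 and 155 CPM in the other controls. Its call in controls (-2.62 ± 0.66, adjusted p = 0.00934) ended without that library, at a log2 fold change of -0.63, under the 2-fold limit.

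In the test across all genes, 818 members had enough counts to be tested. The filter level of 0.66 CPM was reached in at least 3 libraries of ‘Mv 17-09’ by 343 members and of ‘Ellvis’ by 775, and 466 passed through ‘Ellvis’ alone, so counts over the 818 are given as a description. In controls, 630 were lower (77%) and 32 higher (3.91%) in ‘Mv 17-09’ than in ‘Ellvis’, where a call needed 2-fold and an adjusted p below 0.05 (edgeR quasi-likelihood test, Benjamini-Hochberg over 70527 genes). Over all genes, 12.9% were called, 7.02% lower and 5.83% higher. After heat stress, 646 members were lower (79%) and 33 higher in ‘Mv 17-09’, where 21.9% of all genes were called, 13.2% lower and 8.66% higher. The sets shared 603 lower and 25 higher members, and none changed side. This overlap is not given here for all genes, so it is not read as a trait of the arm. Without control ‘Ellvis’ replicate 3 the 32 higher members in controls became 21. The median log2 fold change of the 818 was -3.22 in controls and -3.37 after heat stress, or -3.15 and -3.08 with the members at 0 in a whole group placed at the bound set by 3 counts over its libraries.

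On the 1A arm, 90 of 950 tested genes were higher (9.47%) and 60 lower (6.32%) in ‘Mv 17-09’ controls, and on the 1D arm 101 of 1073 were higher (9.41%) and 33 lower (3.08%). The median log2 fold change was 0.21 on 1A and 0.18 on 1D, against -0.01 over all genes, -0.09 on the rest of 1A and -0.03 on the rest of 1D. After heat stress the 1A arm had 136 higher (14.3%) and 102 lower genes (10.7%), with a median of 0.23. The 1D arm had 143 higher (13.3%) and 78 lower (7.27%), with a median of 0.26. Over all genes, 8.66% were higher and 13.2% lower after heat stress, and 5.83% and 7.02% in controls. The shift was thus small for a single gene and spread over the arm, with 62.4% of the 1A and 64.4% of the 1D genes above 0 in controls, against 49.2% over all genes. Under the 20 other settings of the fit run for each comparison, the 1A median stayed 0.04 to 0.24 and the 1D median 0.04 to 0.28 above that of all genes. The low ends came from testing every gene with a count, where both medians themselves were 0.00 after heat stress, and in controls -0.06 on 1A and 0.00 on 1D. On the rest of 1B, 153 of 2355 genes were higher (6.5%) and 226 lower (9.6%) in controls, with a median of -0.03. These include the lowered stretch beyond 400000: from 400000 up to 440000, 81 of 101 tested genes were lower, and from 440000 onward 153 of 2254 were higher and 145 lower. How reads shared between A, B and D copies were assigned is not given in the sources used here, and its part in these shifts was not tested.

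Genes named in the study's gene lists could be followed at single loci. The lists hold 13 members, of which 9 were tested, and 8 of these were lower in ‘Mv 17-09’ both in controls, where 7.02% of all genes were lower, and after heat stress, where 13.2% were. Of the namesakes on the 1A and 1D arms, 1 of 6 tested on 1A and 1 of 9 on 1D were higher in controls, against 5.83% of all genes. After heat stress, where 21.9% of all genes were called, none of them were called by edgeR or by DESeq2, with 2 on 1A and 4 on 1D at an unadjusted p under 0.05. The study took up these gene groups after other results on the same samples and assembled them mainly as wheat orthologs of Arabidopsis genes and from its own annotation.

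MEI2-like 3 codes for an RNA-binding protein of the Mei2 family, whose founding member in fission yeast is needed to enter meiosis. The study's list pairs the 1B ID, TraesCS1B03G0015900, with the same RefSeq gene as the 1A copy, so its name rests on that list and no position is given. This 1B copy had 6.67, 7.76 and 8.24 CPM in heat-stressed ‘Mv 17-09’, 10.8, 11.5 and 12.6 CPM in control ‘Mv 17-09’, 211, 233 and 218 CPM in heat-stressed ‘Ellvis’ and 76.3, 156 and 166 CPM in control ‘Ellvis’. All ‘Mv 17-09’ libraries lay far below the lowest ‘Ellvis’ library. Its log2 fold change of ‘Mv 17-09’ over ‘Ellvis’ was -3.54 ± 0.24 in controls (adjusted p = 2.89e-08, edgeR) and -4.87 ± 0.26 after heat stress (adjusted p = 2.32e-09). The 1A copy (TraesCS1A03G0016300, 1A, 4379076 to 4386587) had 113, 111 and 113 CPM in heat-stressed ‘Mv 17-09’, 247, 248 and 228 CPM in control ‘Mv 17-09’, 141, 155 and 151 CPM in heat-stressed ‘Ellvis’ and 62.7, 130 and 140 CPM in control ‘Ellvis’. It was higher in ‘Mv 17-09’ controls by 1.09 ± 0.22 on the log2 scale (adjusted p = 0.00169), and by 0.84, under the 2-fold limit, without control ‘Ellvis’ replicate 1.

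The 1D copy of MEI2-like 3 (TraesCS1D03G0008200, 1D, 2648945 to 2656396) had 79.0, 77.5 and 75.8 CPM in heat-stressed ‘Mv 17-09’, 172, 184 and 169 CPM in control ‘Mv 17-09’, 122, 130 and 121 CPM in heat-stressed ‘Ellvis’ and 80.8, 114 and 127 CPM in control ‘Ellvis’. Its difference in controls was 0.69 ± 0.16 (adjusted p = 0.00582, edgeR), under the 2-fold limit. Both copies fell under heat in ‘Mv 17-09’, by 1.10 ± 0.22 on the log2 scale on 1A (adjusted p = 0.00176; -0.996, under the 2-fold limit, on library totals alone) and by 1.17 ± 0.16 on 1D (adjusted p = 8.81e-05), and their heat effects differed from those in ‘Ellvis’ (adjusted p = 0.00714 and 0.00169). Summed over 1A, 1B and 1D, MEI2-like 3 was at 196 to 198 CPM in heat-stressed ‘Mv 17-09’ and 475 to 518 CPM in heat-stressed ‘Ellvis’, without overlap. In controls the sum was 409 to 443 CPM in ‘Mv 17-09’ and 220 to 433 CPM in ‘Ellvis’, and the ranges overlapped.

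Genes of the actin cytoskeleton had few 1B counts in ‘Mv 17-09’. Actin-97 (TraesCS1B03G0048800, 1B, 12376413 to 12379636), a subunit of actin filaments, had 2.29, 2.94 and 2.35 CPM in heat-stressed ‘Mv 17-09’, 3.08, 2.31 and 2.73 CPM in control ‘Mv 17-09’, 62.6, 63.9 and 64.7 CPM in heat-stressed ‘Ellvis’ and 42.9, 85.7 and 90.6 CPM in control ‘Ellvis’. The log2 fold change was -4.80 ± 0.25 in controls (adjusted p = 1.70e-09, edgeR). The 1D namesake (TraesCS1D03G0038800) averaged 113 ± 9.93 CPM in ‘Mv 17-09’ and 76.5 ± 25.5 CPM in ‘Ellvis’ (SD, n = 6 each), and was higher in ‘Mv 17-09’ without overlap in each treatment. The difference did not pass the test in controls (0.56 ± 0.27, adjusted p = 0.171) or after heat stress (0.52 ± 0.27, adjusted p = 0.150). Villin-1 (TraesCS1B03G0333400, 1B, 153105446 to 153111265), which bundles actin filaments, had 0.834, 0.944 and 1.39 CPM in heat-stressed ‘Mv 17-09’, 0.671, 1.10 and 1.17 CPM in control ‘Mv 17-09’, 16.1, 13.3 and 16.8 CPM in heat-stressed ‘Ellvis’ and 9.60, 14.3 and 14.5 CPM in control ‘Ellvis’. It was lower in ‘Mv 17-09’ by -3.77 ± 0.22 in controls (adjusted p = 6.71e-09). Its 1A and 1D namesakes had log2 fold changes of 0.34 ± 0.18 and 0.13 ± 0.14 in controls, and neither passed.

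Genes of the spindle and of cell division were lowered to different depths. Gamma-tubulin (TraesCS1B03G0340300, 1B, 157773697 to 157778920), which starts new microtubules, averaged 1.73 CPM in ‘Mv 17-09’ and 14.4 CPM in ‘Ellvis’, with a log2 fold change of -2.96 ± 0.24 in controls (adjusted p = 1.99e-07, edgeR). GCP4 (TraesCS1B03G0335100, 1B, 154758340 to 154765121), a partner of gamma-tubulin in the nucleating complex, averaged 1.44 CPM in ‘Mv 17-09’ and 6.95 CPM in ‘Ellvis’, and its fold change was -2.42 ± 0.28 (adjusted p = 1.06e-05). The kinesin KIN-13A (TraesCS1B03G0335700, 1B, 155209661 to 155218036), a motor protein of microtubules, had 8.86, 6.29 and 8.03 CPM in heat-stressed ‘Mv 17-09’, 8.65, 7.50 and 7.29 CPM in control ‘Mv 17-09’, 27.3, 28.8 and 27.7 CPM in heat-stressed ‘Ellvis’ and 19.8, 34.3 and 34.7 CPM in control ‘Ellvis’. Its log2 fold change was -2.0 ± 0.18 in controls (adjusted p = 5.81e-07), without overlap. Over 1A, 1B and 1D together, KIN-13A was at 58.7 to 70.0 CPM in heat-stressed ‘Mv 17-09’ and 75.7 to 77.6 CPM in heat-stressed ‘Ellvis’, without overlap, and in controls at 75.1 to 79.7 CPM in ‘Mv 17-09’ and 59.9 to 87.9 CPM in ‘Ellvis’.

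APC7 (TraesCS1B03G0322100, 1B, 144918031 to 144929869), a subunit of the anaphase-promoting complex, averaged 0.990 CPM in ‘Mv 17-09’ and 3.19 CPM in ‘Ellvis’. The cultivars overlapped through control ‘Ellvis’ replicate 1, at 0.565 CPM. It was called lower in controls (-2.36 ± 0.36, adjusted p = 0.000163, edgeR) and after heat stress (-1.34 ± 0.37, adjusted p = 0.0102), the second call ending without heat-stressed ‘Mv 17-09’ replicate 1 (adjusted p = 0.0543). SPC25 (TraesCS1B03G0075500, 1B, 18612613 to 18615987), a part of the kinetochore, averaged 0.760 CPM in ‘Mv 17-09’ and 1.76 CPM in ‘Ellvis’ with no overlap, but did not pass in controls (-1.12 ± 0.40, adjusted p = 0.0597). It passed there without control ‘Ellvis’ replicate 1 (adjusted p = 0.0496), without control ‘Ellvis’ replicate 2 (adjusted p = 0.0254) and on library totals alone (adjusted p = 0.0454). Its 1D namesake (TraesCS1D03G0059900, 1D, 12729469 to 12733052) was higher in ‘Mv 17-09’ controls by 1.14 ± 0.26 (adjusted p = 0.0055, edgeR). The sum of both SPC25 copies was 3.30 ± 0.344 CPM in ‘Mv 17-09’ and 3.17 ± 0.561 CPM in ‘Ellvis’.

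MUS81, an endonuclease that cuts joint DNA molecules in recombination, is listed with a pair of 1B models. TraesCS1B03G0333800 had no count in any ‘Mv 17-09’ library and 1.91, 2.18 and 3.36 CPM in heat-stressed ‘Ellvis’ and 1.13, 2.61 and 2.29 CPM in control ‘Ellvis’. Set against 3 counts over the 6 ‘Mv 17-09’ libraries it was at least 61.3-fold lower in ‘Mv 17-09’. It passed the filter on low counts through ‘Ellvis’ alone. The other model, TraesCS1B03G0281900, also had no count in ‘Mv 17-09’ and averaged 0.639 CPM in ‘Ellvis’, and was not tested. Both are paired with 1 RefSeq gene (1B, 153274818 to 153288256). The 1D copy (TraesCS1D03G0187800) averaged 1.29 CPM in ‘Mv 17-09’ and 1.34 CPM in ‘Ellvis’. The untested remainder of the list was at or near 0 in most libraries of both cultivars. Serpin-Z5 (TraesCS1B03G0326300), of a family of protease inhibitors, was at 0 CPM in ‘Mv 17-09’ and at most 0.385 CPM in ‘Ellvis’. The 2 models of KCS5, an enzyme of very-long-chain fatty acid synthesis, reached at most 0.130 CPM in ‘Mv 17-09’ and 1.69 CPM in ‘Ellvis’, the last in control ‘Ellvis’ replicate 1.

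**Figure D4:**
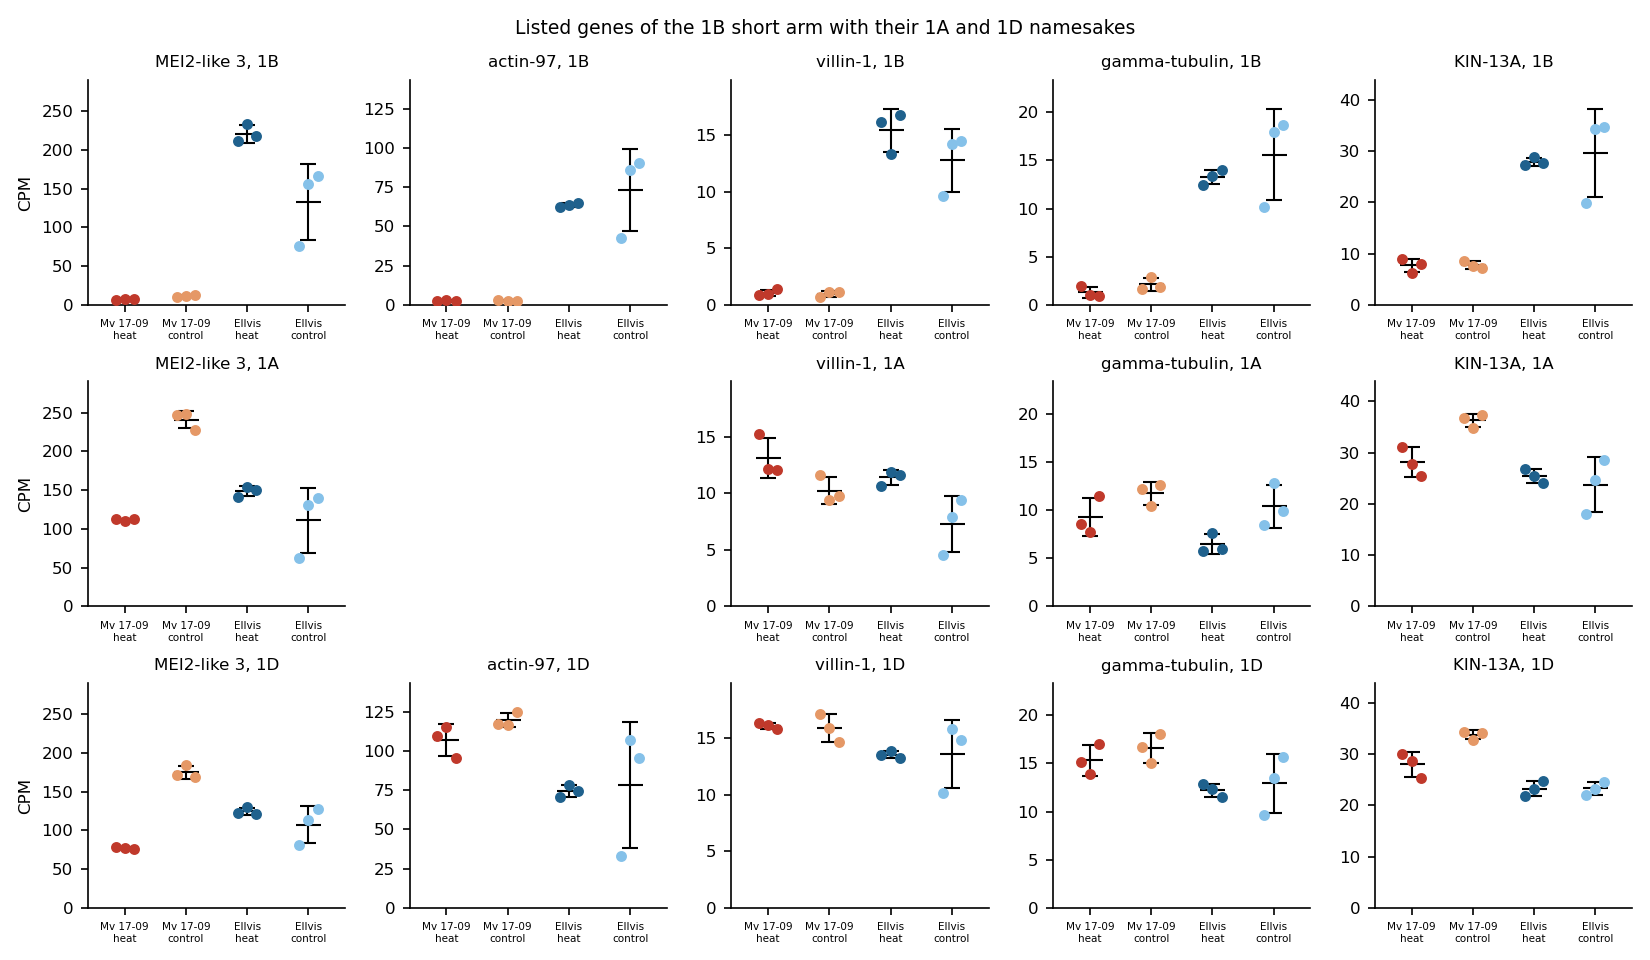
CPM (y axis from 0, 1 scale per column) of 5 listed genes by group (x axis), with the 1B copy in the top row, 1A in the middle and 1D below; no 1A copy of actin-97 is listed. Points are libraries, bars the mean of 3 libraries and error bars the SD. The 1B copies are lower in all ‘Mv 17-09’ libraries than in any ‘Ellvis’ library.

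The members chosen by the smallest p in the cultivar comparisons carry no name in the sources used here. TraesCS1B03G0370300 had 3 counts in all over the 6 ‘Mv 17-09’ libraries, and 63.0, 60.2 and 62.5 CPM in heat-stressed ‘Ellvis’ and 100, 102 and 101 CPM in control ‘Ellvis’. It too passed the filter through ‘Ellvis’ alone. TraesCS1B03G0334900 had 1.88, 1.78 and 1.61 CPM in heat-stressed ‘Mv 17-09’, 0.201, 0.367 and 0.391 CPM in control ‘Mv 17-09’, 34.3, 33.6 and 33.8 CPM in heat-stressed ‘Ellvis’ and 31.6, 50.2 and 52.9 CPM in control ‘Ellvis’. The low-confidence TraesCS1B03G0279400LC had at most 0.105 CPM in ‘Mv 17-09’ and 17.5 to 23.8 CPM in ‘Ellvis’, and likewise passed the filter through ‘Ellvis’ alone. TraesCS1B03G0380000 had 1.43 to 3.86 CPM in ‘Mv 17-09’ and 37.9 to 70.4 CPM in ‘Ellvis’.

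Some members were higher in ‘Mv 17-09’. TraesCS1B03G0169200 had 31.3, 29.4 and 27.3 CPM in heat-stressed ‘Mv 17-09’, 37.5, 33.0 and 34.4 CPM in control ‘Mv 17-09’, 4.43, 4.98 and 3.52 CPM in heat-stressed ‘Ellvis’ and 6.21, 4.21 and 5.37 CPM in control ‘Ellvis’. Its log2 fold change was 2.83 ± 0.17 in controls (adjusted p = 8.28e-09, edgeR) and 2.76 ± 0.16 after heat stress (adjusted p = 4.90e-09). TraesCS1B03G0167700 had 5.67 to 8.24 CPM in ‘Mv 17-09’ and at most 0.565 CPM in ‘Ellvis’, and passed the filter through ‘Mv 17-09’ alone. TraesCS1B03G0044500 was higher only in controls, with levels that overlapped after heat stress.

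On the 1A and 1D arms, genes called higher and genes called lower were chosen separately by the smallest p in controls. Both directions thus appear here by choice. TraesCS1D03G0035800 had 61.6, 54.4 and 65.1 CPM in control ‘Mv 17-09’ and 8.47, 6.99 and 7.88 CPM in control ‘Ellvis’ (2.99 ± 0.18, adjusted p = 6.71e-09, edgeR). TraesCS1A03G0164300 averaged 42.6 ± 2.64 CPM in control ‘Mv 17-09’ and 5.24 ± 2.19 CPM in control ‘Ellvis’ (SD, n = 3 each), a log2 fold change of 2.82 ± 0.18 (adjusted p = 1.27e-08). TraesCS1A03G0168100LC had at most 0.214 CPM in ‘Mv 17-09’ and 49.1 to 73.4 CPM in ‘Ellvis’, and passed the filter through ‘Ellvis’ alone. TraesCS1A03G0127300 had at most 1.36 CPM in ‘Mv 17-09’ and 20.9 to 37.9 CPM in ‘Ellvis’. Single genes with next to no ‘Mv 17-09’ counts thus also occurred outside the 1B arm.

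Heat was compared with control within each cultivar. In ‘Mv 17-09’, 25 of the 818 tested members rose (3.06%) and 34 fell (4.16%), where 11.6% of all genes were called, 4.67% higher and 6.93% lower. In ‘Ellvis’, 19 rose (2.32%) and 11 fell (1.34%), where 3.62% of all genes were called, 1.98% higher and 1.64% lower. Because many members had next to no counts in ‘Mv 17-09’, the counts were also taken over members averaging 1 CPM or more in the cultivar concerned. These were 273 in ‘Mv 17-09’, of which 19 rose (6.96%) and 20 fell (7.33%), against 4.80% and 7.50% of all genes at that level. In ‘Ellvis’ 693 of the 708 such members were tested, of which 17 rose (2.45%) and 10 fell (1.44%), against 2.09% and 1.86%. The median log2 heat effect was -0.04 in ‘Mv 17-09’ and 0.01 in ‘Ellvis’ over these members. The share of library counts held by the arm was 0.217% in heat-stressed and 0.221% in control ‘Mv 17-09’, and 0.896% in heat-stressed and 0.997% in control ‘Ellvis’. Without control ‘Ellvis’ replicate 1 the controls were at 0.909% and 0.904%.

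The call counts for heat depended on single libraries, over the members and over all genes. With a library left out, 856 to 899 members were tested. Without control ‘Ellvis’ replicate 1, 43 of 870 members rose (4.94%) and 18 fell (2.07%) in ‘Ellvis’, against 4.29% and 2.17% of all genes. In ‘Mv 17-09’ 36 rose (4.14%) and 46 fell (5.29%), against 6.15% and 8.35% of all genes. The members that rose in ‘Ellvis’ came down to 8 without control ‘Ellvis’ replicate 2 (0.927%, against 1.09% of all genes) and to 12 without replicate 3 (1.34%, against 1.05%). Those that fell came down to 1 without heat-stressed ‘Ellvis’ replicate 3 (0.116%, against 0.953% of all genes), and to 7 without control replicate 2 or 3 or heat-stressed replicate 1 or 2 (0.780% to 0.818%, against 1.12% to 1.42%). In ‘Mv 17-09’ the members that fell came down to 19 without heat-stressed ‘Mv 17-09’ replicate 1 (2.11%, against 5.43% of all genes).

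The difference between the heat effects was called for 26 of the 818 tested members. In ‘Mv 17-09’ the effect was more positive than in ‘Ellvis’ for 8 (0.978%) and more negative for 18 (2.2%). Of all genes 5.21% were called, 1.46% more positive and 3.75% more negative. Without control ‘Ellvis’ replicate 1 these were 18 and 41 (2.07% and 4.71%, against 2.48% and 7.13% of all genes), and without heat-stressed ‘Mv 17-09’ replicate 2 they were 4 and 10 (0.445% and 1.11%, against 0.907% and 2.61%). The more positive members were also 4 without control ‘Ellvis’ replicate 3 or heat-stressed ‘Ellvis’ replicate 1 or 3, and 5 without control ‘Ellvis’ replicate 2, control ‘Mv 17-09’ replicate 2 or heat-stressed ‘Mv 17-09’ replicate 3. The more negative members were also 10 without control ‘Mv 17-09’ replicate 2 or 3 and 11 without heat-stressed ‘Ellvis’ replicate 2. Between the cultivars, 4 members rose in both, 4 fell in both and 3 were called in opposite directions (0.489%, 0.489% and 0.367% of the 818), against 0.861%, 0.886% and 0.164% of all genes. Of the 818, 466 passed the filter through ‘Ellvis’ alone, and with few ‘Mv 17-09’ counts a heat effect there can hardly be measured. The shares of the 818 in this paragraph are therefore not read as a trait of the arm. Over the 247 members with at least 1 CPM in both cultivars, the heat effects had a Pearson correlation of 0.45 and a Spearman correlation of 0.38 across genes, against 0.43 and 0.35 over all 50532 such genes; genes are not independent replicates.

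**Figure D5:**
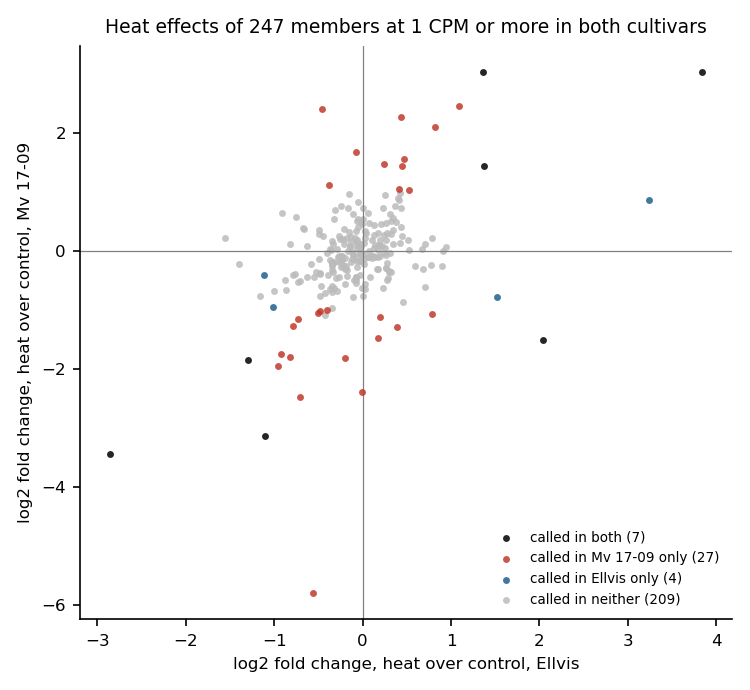
Log2 fold change of heat over control in ‘Mv 17-09’ (y axis) against ‘Ellvis’ (x axis) for the 247 members with a mean of at least 1 CPM in both cultivars. Colours give the cultivar in which a member was called (adjusted p under 0.05 and at least 2-fold). Of these, 7 were called in both, 27 in ‘Mv 17-09’ only, 4 in ‘Ellvis’ only and 209 in neither (2.83%, 10.9%, 1.62% and 84.6%), against 2.25%, 9.66%, 1.79% and 86.3% of all 50532 genes at that level.

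Among the members that heat raised, TraesCS1B03G0313400LC had 11.2, 15.3 and 24.0 CPM in heat-stressed ‘Mv 17-09’ and 2.28, 2.15 and 1.69 CPM in control ‘Mv 17-09’, a log2 fold change of 3.03 ± 0.33 (adjusted p = 8.69e-06, edgeR). In ‘Ellvis’ it had 4.57, 10.7 and 7.93 CPM under heat and 5.08, 2.43 and 3.30 CPM in controls. The groups overlapped and the call (1.36 ± 0.35, adjusted p = 0.0296) ended when any of 4 single ‘Ellvis’ libraries was left out, with adjusted p from 0.0805 to 0.181. TraesCS1B03G0387000 had 21.8, 25 and 21.6 CPM in heat-stressed ‘Mv 17-09’ and 6.77, 6.35 and 8.27 CPM in control ‘Mv 17-09’, against 118, 117 and 123 CPM in heat-stressed ‘Ellvis’ and 92.1, 141 and 140 CPM in control ‘Ellvis’. It rose in ‘Mv 17-09’ by 1.68 ± 0.19 on the log2 scale (adjusted p = 1.04e-05), and in ‘Ellvis’ its change was -0.08 ± 0.17 (adjusted p = 0.855). In ‘Ellvis’, TraesCS1B03G0397800 had 8.52, 6.44 and 9.97 CPM under heat and 3.39, 2.02 and 2.44 CPM in controls (1.83 ± 0.26, adjusted p = 0.000468), and in ‘Mv 17-09’ it stayed below 0.54 CPM.

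Of the members that heat lowered, TraesCS1B03G0200100 fell in both cultivars. It had 0.625, 0.629 and 0.749 CPM in heat-stressed ‘Mv 17-09’ and 5.90, 5.98 and 5.93 CPM in control ‘Mv 17-09’, against 10.2, 12 and 8.97 CPM in heat-stressed ‘Ellvis’ and 19.8 to 25.4 CPM in control ‘Ellvis’. The log2 fold change was -3.14 ± 0.24 in ‘Mv 17-09’ (adjusted p = 2.81e-07, edgeR) and -1.10 ± 0.14 in ‘Ellvis’ (adjusted p = 0.000197), the second falling under the 2-fold limit at -0.97 without heat-stressed ‘Ellvis’ replicate 3. TraesCS1B03G0036700 fell likewise, by 1.85 ± 0.16 in ‘Mv 17-09’ (adjusted p = 7.98e-07) and by 1.30 ± 0.15 in ‘Ellvis’ (adjusted p = 9.48e-05), and the difference between these effects did not pass (-0.55 ± 0.22, adjusted p = 0.165).

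TraesCS1B03G0044500 was among the 3 members called in opposite directions. It had 24.8, 16.5 and 20.2 CPM in heat-stressed ‘Mv 17-09’ and 57.1, 57.2 and 62.4 CPM in control ‘Mv 17-09’, against 20.3, 19.0 and 19.8 CPM in heat-stressed ‘Ellvis’ and 2.26, 5.27 and 4.87 CPM in control ‘Ellvis’. It fell in ‘Mv 17-09’ by 1.52 ± 0.17 on the log2 scale (adjusted p = 9.09e-06, edgeR) and rose in ‘Ellvis’ by 2.04 ± 0.20 (adjusted p = 1.74e-05). Controls differed between the cultivars by 3.62 ± 0.20 (adjusted p = 2.87e-09), while after heat stress the levels overlapped (0.06 ± 0.17, adjusted p = 0.823). On 1D, TraesCS1D03G0035800 showed the same directions, at 18, 12.7 and 16.7 CPM in heat-stressed ‘Mv 17-09’ and 37.1, 41 and 32.8 CPM in heat-stressed ‘Ellvis’ beside its control values above. Its heat effect was -1.93 ± 0.16 in ‘Mv 17-09’ (adjusted p = 5.22e-07) and 2.29 ± 0.18 in ‘Ellvis’ (adjusted p = 2.59e-06).

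Of the 1B copies of the listed genes, none of the 9 tested was called for heat in either cultivar by edgeR or by DESeq2, where edgeR called 11.6% of all genes in ‘Mv 17-09’ and 3.62% in ‘Ellvis’. An unadjusted p under 0.05 was reached by 1 of the 9 in each cultivar. MUS81 (TraesCS1B03G0333800) had no count in any ‘Mv 17-09’ library, so no heat effect could be measured there. SPC25, APC7, villin-1 and GCP4 averaged 0.760 to 1.44 CPM in ‘Mv 17-09’, where a heat effect can hardly be measured. The lack of calls in ‘Mv 17-09’ is therefore not read as a trait of the 1B copies. The 1B copy of MEI2-like 3 had a heat effect of -0.62 ± 0.24 in ‘Mv 17-09’ (adjusted p = 0.0853, edgeR) and 0.71 ± 0.22 in ‘Ellvis’ (adjusted p = 0.0602). The difference between these, -1.33 ± 0.33, passed (adjusted p = 0.0224), but not when any of 8 single libraries was left out (adjusted p from 0.0522 to 0.0809).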

How the data were processed

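RNA of anthers was depleted of ribosomal RNA, made into libraries with a directional kit and sequenced. Per the labels the authors checked reads with FastQC 0.11.8, and per the study's methods mapped them in CLC Genomics Workbench to the IWGSC RefSeq v2.1 assembly of the cultivar Chinese Spring. The deposited values are raw counts per gene model. The sources used here do not give the strand setting or the handling of reads that fit several copies, which could move counts between A, B and D copies.

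All 12 libraries were fitted with edgeR 4.0.16 (R 4.3.3; TMM, filterByExpr at 10 counts and a total of 15, 4 groups, quasi-likelihood test, Benjamini-Hochberg over 70527 genes), and calls needed 2-fold and an adjusted p below 0.05. Standard errors are approximate (log2 fold change divided by the root of F). Tests cover only the spread between these libraries. DESeq2 1.42.0 was an alternative. Scripts were tested on simulated counts. Shares, counts of genes without counts and ratios use all models, with no test. Named genes are the 13 listed members with their 1A and 1D namesakes, per comparison at most 2 members called higher and 2 lower with the smallest p and no overlap, the 2 highest members of each cultivar, and 4 genes of 1A and 1D chosen likewise. The genes beside the edge were added after their values were seen. The members and lists were chosen with earlier results of these data known. Names and RefSeq genes come from the study's lists, and no sequence was used.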

Additional observations from a re-analysis of the deposited data

Results flagged for a closer look

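For 5 named members the heat effects of the cultivars differed by the test of the difference itself (edgeR quasi-likelihood, log2, ‘Mv 17-09’ heat effect minus ‘Ellvis’ heat effect). The difference was -3.57 for TraesCS1B03G0044500 (adjusted p = 1.83e-06), -2.03 for TraesCS1B03G0200100 (adjusted p = 0.000612) and -1.33 for the 1B copy of MEI2-like 3, TraesCS1B03G0015900 (adjusted p = 0.0224). It was 2.87 for TraesCS1B03G0334900 (adjusted p = 0.000391) and 1.75 for TraesCS1B03G0387000 (adjusted p = 0.000515). TraesCS1B03G0334900 had under 2 CPM in every ‘Mv 17-09’ library, and its rise there was 2.41 ± 0.36 (adjusted p = 0.000202), at 1.61 to 1.88 CPM under heat and 0.201 to 0.391 CPM in controls.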

How the results depend on the processing

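The lowering of members in ‘Mv 17-09’ kept its direction under every setting run. Over the settings of the fit, the median log2 fold change of tested members minus that of all genes was -3.337 to -2.85 in controls. After heat stress it was -3.525 to -2.002. The settings differ in the members tested and in the share of all genes called, so the counts below are not comparable as shares. The shares of all genes called under them are not given here. The counts of 630 lower members in controls and 646 after heat stress became 368 and 329 under an approximation of the study's stricter criteria. It used a likelihood ratio test (edgeR) and a Wald test (DESeq2), with adjusted p under 1e-06 in both. The study ran its own tests in CLC Genomics Workbench, for heat against control. With ID numbers under 300000, a smaller set, the counts were 404 and 410. Leaving out single libraries, with 856 to 899 members tested instead of 818, gave 619 to 670 and 648 to 702. The 32 higher members in controls became 18 (mean of at least 1 CPM), 8 (stricter criteria), 20 (only the groups compared) and 20 (high-confidence only), and 21 to 43 without single libraries. The 33 after heat stress became 52 without a filter, 18 at a mean of at least 1 CPM, 13 under the stricter criteria and 18 for high-confidence models, and 30 to 43 without single libraries.

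For heat in ‘Mv 17-09’, the stricter criteria left 5 that rose and 7 that fell, numbers under 300000 left 16 that rose, and leaving out libraries gave 18 to 36 and 19 to 46. In ‘Ellvis’, 30 rose on library totals alone, 1 under the stricter criteria, 9 with only the groups compared and 10 with numbers under 300000, while 3 and 7 fell under the stricter criteria and with only the groups compared. Leaving out libraries gave 8 to 43 and 1 to 18. For the difference the stricter criteria left 3 and 1, and leaving out libraries gave 4 to 18 and 10 to 41. These counts too are not comparable as shares. Beside the main fit, shares of all genes called for heat are given above only for some left-out libraries. The causes were not tested.

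Deviations from the group mean were weakly correlated between same-numbered libraries (-0.052 to 0.179). Between heat and control in ‘Ellvis’ they were 0.08 to 0.179, and -0.181 to 0.086 for libraries with unlike numbers. With 3 libraries a group, whether the numbers mark pairs cannot be settled. With the replicate block, 29 members were higher and 629 lower in controls, 32 and 642 after heat stress, 25 rose and 32 fell in ‘Mv 17-09’, 15 rose and 8 fell in ‘Ellvis’, and 4 and 18 differed in their heat effects.

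Without TraesCS1B03G0226200LC, a setting chosen after seeing the data, the mean share was 0.210% in ‘Mv 17-09’ and 0.904% in ‘Ellvis’. High-confidence members alone held 0.186% of counts in ‘Mv 17-09’ and 0.807% in ‘Ellvis’. Members counted in ‘Ellvis’ but not in ‘Mv 17-09’ were 34 at a mean of at least 5 CPM, and the reverse 0. Leaving out control ‘Ellvis’ replicate 1 gave 162 and 6, a mean share of 0.900% in ‘Ellvis’, and -1.62 for the highest bin of the 1B arm. Of 76 called results of named genes, 67 stayed called under every setting other than the stricter criteria, which ended 15 calls. Many of these genes were chosen by the smallest p, so this is no measure for the members at large. Libraries of 9336312 counts and more limit what can be said of members under about 1 CPM, and control ‘Ellvis’ replicate 1 of more.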

Other observations

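On the rest of 1B, the larger share of counts in ‘Mv 17-09’ came from low-confidence models. These held 1.66% of library counts in ‘Mv 17-09’ and 0.984% in ‘Ellvis’, while high-confidence models there held 2.20% in ‘Mv 17-09’ and 2.39% in ‘Ellvis’. The 323 low-confidence models of that stretch with a mean of at least 1 CPM had a median log2 ratio of -0.02.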
